A study of Mus musculus with 8 samples.

Results

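Mouse small-intestinal organoids, epithelial cultures that form crypt-like structures, were profiled for gene expression, and the question here was whether the change with loss of Tcf7l2 and the change with overexpression of Ascl2 added up when both were present. The comparison took 4 of the series' 8 arrays, all those of its experiment 2. Each array carried 2 colours, with Cy5 for its own RNA and Cy3 for RNA of organoids transduced with dsGFP. The own RNA came from organoids labelled Tcf7l2 null, from organoids labelled Ascl2 overexpressing, from organoids labelled with both, and, on a self-self array, from the dsGFP control itself. All of them, the control included, had a 16 h pulse of 4OH-tamoxifen, which per the labels deleted Tcf7l2, switched on Ascl2, did both, or switched on GFP. For every probe, the log2 ratio to the dsGFP control was taken less the self-self array, and the departure was the value with both changes minus the sum of the values with each change alone. A departure of 0 on this log2 scale means that the fold changes multiplied. Of 41174 probes, 23451 gave a departure, and with the brightest probe kept per gene these were 16429 of 28507 gene names on the array. All 4 arrays were well above background in both channels for 13466 of the 16429 genes, called fully measured below. Each condition had 1 array, so the values have no replicate check and carry no p-value.

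Tcf7l2 is a DNA-binding protein that partners beta-catenin and carries Wnt signals to genes in the crypt, the dividing compartment at the base of the intestinal villi. Ascl2 is a basic helix-loop-helix transcription factor that is itself a Wnt target and is a known regulator of the Lgr5-positive stem cells at the crypt base. Stem cells give rise to absorptive enterocytes and to secretory Paneth, goblet, enteroendocrine and tuft cells.

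On these arrays 50.1% to 55.0% of spots were well above background in the Cy3 channel and 53.8% to 55.2% in the Cy5 channel, and 0 spots were saturated. The 7 epithelial markers looked at (Cdh1, Cdx2, Epcam, Krt20, Lyz1, Muc2 and Vil1) were above background in all 8 channels. Of 17 fibroblast genes on the array 8 were above background in no channel, Col1a1, Col3a1, Dcn and Pdgfra among them, as were 6 of 8 endothelial genes. The single Ascl2 probe (mm9 chr7:150154439-150154498) read -0.58 with Tcf7l2 loss, -0.69 with Ascl2 overexpression and -0.94 with both, so it was not higher in the organoids labelled Ascl2 overexpressing. The brightest Tcf7l2 probe (mm9 chr19:56007586-56007645) read -0.72, -0.33 and -0.20, and the other 2 Tcf7l2 probes lay between -0.05 and 0.30. The sources used here do not give the deleted exon of Tcf7l2 or the Ascl2 sequence of the construct, and a probe outside either checks nothing. The conditions are named as labelled throughout.

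The combined organoids departed from the sum by 2-fold or more for 1780 of 16429 genes, 10.8% of those measured. Of these, 782 genes (4.76%) lay above the sum and 998 (6.07%) below it. Among fully measured genes 769 (5.71%) lay above and 955 (7.09%) below, 12.8% in all. The split depends on the scaling: 43.9% of all departures past 2-fold were above the sum here, 77.2% (1958 above, 577 below) with arrays centred on their median in place of loess, and 55.1% (1131 and 922) with changes added on the linear scale. Values past 2-fold were fewer on the arrays themselves: 206 genes (1.25%) with Tcf7l2 loss, 346 (2.11%) with Ascl2 overexpression, 623 (3.79%) with both and 3 (0.0183%) on the self-self array. The sum of the single values predicted 1221 genes (7.43%) past 2-fold in the combination, against the 623 measured. The spread over genes went the same way, with an SD of 0.58 for the sum and 0.44 for the combined values, and of 0.64 for the departure against 0.19 for the self-self array. Combined values thus ran over a narrower range than the sum, with more genes 2-fold lower (416, 2.53%) than higher (207, 1.26%). The sum draws on more arrays than the combined value, and the departure on all 4 against 1 for the self-self value. Array noise alone therefore widens the sum and the departure, by an amount that was not tested.

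**Figure D1:**
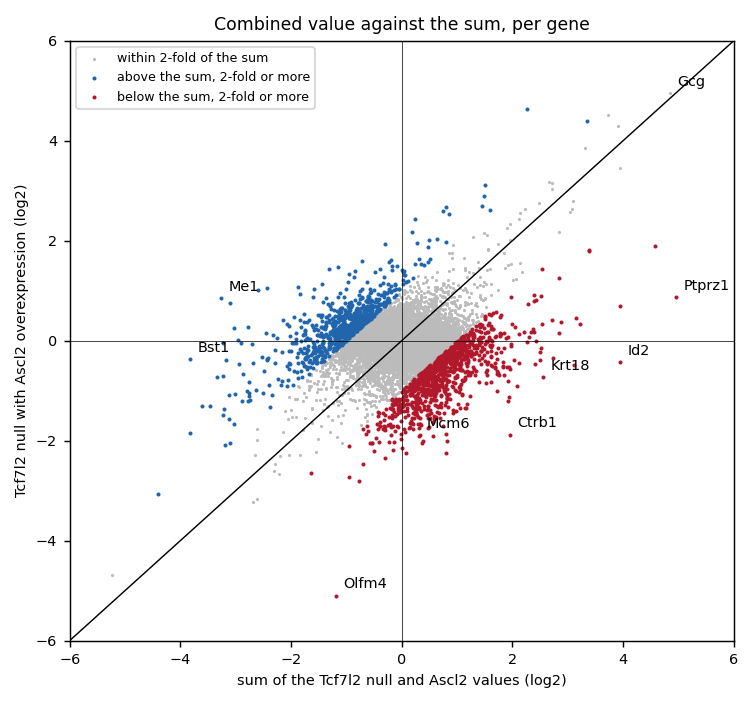
Each point is 1 of 13466 fully measured genes. The x axis gives the sum of the Tcf7l2 null and Ascl2 values and the y axis the value with both changes. Both are log2 ratios to the dsGFP control less the self-self array, and the diagonal marks equality. The 769 genes at least 2-fold above the sum (blue) lie mostly where the sum is below 0. The 955 genes at least 2-fold below it (red) lie mostly where the sum is above 0.

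The spread of a departure over repeated spots of a probe on the same arrays was small beside 2-fold. The 125 fully measured probes that are spotted 10 times on each array had a median SD of the departure over spots of 0.0907, with a range of 0.0232 to 0.339. Different probes of a gene differed more: over 4163 genes with at least 2 fully measured probes the median SD was 0.19, and the 90th percentile 0.52. Of 241 genes with several such probes called above the sum, all probes were above 0 for 221 and past 2-fold for 96. For 294 called below it, these numbers were 272 and 129. Departures past 2-fold were rare among the 4108 dimmest genes (0.219% above and 0.633% below). They were frequent among the 4107 brightest (8.45% and 8.79%) and the 4107 next in brightness (6.01% and 9.37%). The single values enter a departure with a minus sign, so an error on either single array moves it the opposite way. All these measures come from the same arrays. None of them covers differences between cultures, or between arrays in labelling and hybridization.

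Fully measured genes were next divided by what the single arrays showed, with 1.5-fold (0.58 on the log2 scale) as the least change in both singles. Where both single changes went the same way, the combination mostly showed neither. Of 113 genes higher in both singles 99 lay 2-fold or more below the sum and 0 above, and 81 were within 1.5-fold of the control in the combination, with medians of 0.89 and 0.88 in the singles and 0.10 in the combination. Of 194 genes lower in both singles 161 lay above the sum and 0 below. Their medians were -0.89 and -0.85 in the singles and -0.37 in the combination, where 130 genes were within 1.5-fold of the control and 60 were still lower. The singles chose these genes and enter the departure, so the counts describe the classes and test nothing. They also depend on the normalization: with median centring the 99 and 161 became 31 and 641. With the Ascl2 values of the series' experiment 1 they were 88 and 127.

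Changes that were 2-fold in a single condition and under 1.5-fold in the other behaved unlike each other. All 43 genes higher only with Tcf7l2 loss lay 2-fold or more below the sum, with a median of 1.12 in the Tcf7l2 null organoids and -0.42 in the combination. Of 35 genes lower only with Tcf7l2 loss, 33 lay above the sum, with medians of -1.10 and 0.36. Changes seen only with Ascl2 overexpression were mostly kept. For 76 genes higher only there the median was 1.36 alone and 1.44 with Tcf7l2 loss, and 59 of the 76 were within 2-fold of the sum. For 84 genes lower only there the medians were -1.24 and -1.20. The single value that chose a class enters its departure with a minus sign, so these counts also describe and test nothing. These single-condition classes were not recounted with the Ascl2 values of experiment 1, and the difference between them was not tested.

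The effect of Tcf7l2 loss can also be read inside the Ascl2-overexpressing organoids, as the combined value minus the Ascl2 value, which shares no array with the Tcf7l2 null value other than through the control RNA. Of 192 fully measured genes past 2-fold with Tcf7l2 loss alone, 71 were past 2-fold the opposite way when Ascl2 was overexpressed and 0 the same way. The effect of Ascl2 read inside Tcf7l2 null organoids was past 2-fold the same way for 117 of 292 genes that passed alone, and the opposite way for 28. Shares past 2-fold in these inner effects over all 13466 fully measured genes are not given, so the counts are a description and were not tested. In a further class of 179 genes, neither single value passed 1.5-fold and the combination was 2-fold lower or more, with median values of 0.35 with Tcf7l2 loss, -0.28 with Ascl2 and -1.27 with both. The reverse class, 2-fold higher in the combination only, held 25 genes. The class of 179 held 69 genes with median centring and 292 with the scanner's ratio.

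**Figure D2:**
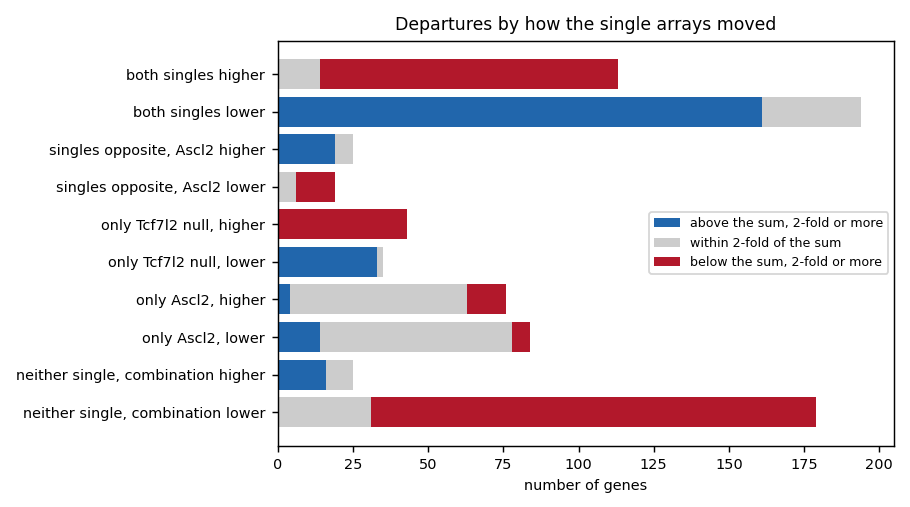
Bars on the x axis count fully measured genes by the direction of their single values; blue marks genes 2-fold or more above the sum, red below, grey within 2-fold. The classes that changed with Tcf7l2 loss only are almost all blue or red, whereas those that changed with Ascl2 only are mostly grey.

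Id2 was the gene farthest below the sum. It codes for a helix-loop-helix protein without a DNA-binding region that pairs with the E proteins, the partners of tissue-specific factors such as Ascl2, and so keeps them off DNA. Its brightest probe (mm9 chr12:25778904-25778963) read 2.99 with Tcf7l2 loss, 0.96 with Ascl2 overexpression and -0.43 with both, a departure of -4.38. The single conditions were thus well above the control and the combination slightly below it. A further fully measured Id2 probe departed by -3.17 and a further dim one by -0.38. Its relatives, looked at after the Id2 value was seen, departed less: the Id1 probes by -0.75 and -0.90, Id3 by -0.47 and the dim Id4 probes by -0.35 and -0.29. The E proteins Tcf3, Tcf4 and Tcf12 departed by -1.01 to 0.42 over their 7 probes.

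Ptprz1, a receptor-type tyrosine phosphatase, read 1.27 with Tcf7l2 loss, 3.69 with Ascl2 and 0.87 with both, a departure of -4.09. Aqp4, a water channel, read 1.62, 1.49 and -0.48 and departed by -3.59. Its 3 fully measured probes departed by -4.02 to -3.59. Both genes were thus higher in each single condition than with both changes, where Aqp4 was below the control and Ptprz1 above it. Krt18, a keratin of simple epithelia, followed the same order at 1.48, 1.07 and -0.72 (departure -3.28), and so did the NADPH oxidase subunit Cyba at 1.07, 1.02 and -0.90 (-2.98). Actin of skeletal muscle, Acta1, read 1.62, 2.34 and 0.69 (-3.26). Grn (-3.07) and Vapb (-3.06) each had another probe near the sum, at -0.50 and -0.12.

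Other genes far below the sum were not high in both singles. Olfm4, a secreted glycoprotein used as a marker of crypt base stem cells, read 0.79 with Tcf7l2 loss, -1.98 with Ascl2 and -5.10 with both, a departure of -3.91. A second Olfm4 probe, not above background in every channel, departed by -3.46. Olfm4 was thus much lower with both changes than with Ascl2 alone, although it was above the control when only Tcf7l2 was lost. In experiment 1 the Ascl2 value of Olfm4 was positive instead of negative, and with it the departure was -6.78. Ctrb1, the pancreatic protease chymotrypsinogen, read 2.15, -0.20 and -1.88 (-3.83). The linker histone H1f5 read 1.78, 0.14 and -1.20 (-3.11). Stmn1, a microtubule-destabilising protein of dividing cells, read 0.96, -0.17 and -2.25 (-3.05).

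Farthest above the sum was Me1, the cytosolic malic enzyme that supplies NADPH (probe at mm9 chr9:86475291-86475347). It read -2.45 with Tcf7l2 loss, -0.82 with Ascl2 and 0.85 with both, a departure of 4.12. Its lowest fully measured probe departed by 3.42. Hsd17b6, a hydroxysteroid dehydrogenase, read -1.78, -1.34 and 0.75 (3.86), and the mannose-binding lectin Mbl2 read -1.41, -1.18 and 1.02 (3.61). These genes were lower than the control in each single condition and above it in the combination. The dopamine transporter Slc6a3 had the same pattern at -1.98, -0.45 and 1.05 (3.48).

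Most of the other genes at this end were low in both singles and near the control with both. Bst1, an ectoenzyme that acts on NAD, read -1.96, -1.87 and -0.36 (3.46). Monoamine oxidase B, Maob, read -1.34, -1.69 and 0.25 (3.28). The glucuronosyltransferase Ugt1a9 departed by 3.04, the brush border ceramidase Asah2 by 2.97 and the cation exporter Slc47a1 by 2.96. Asah2 had another fully measured probe at 0.38. The cytochrome oxidase subunit Cox7a1 (2.86), the sugar transporter family member Slc5a4a (2.78) and the scaffold protein Pdzk1 (2.78) complete the 12 highest with a plain gene symbol.

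**Figure D3:**
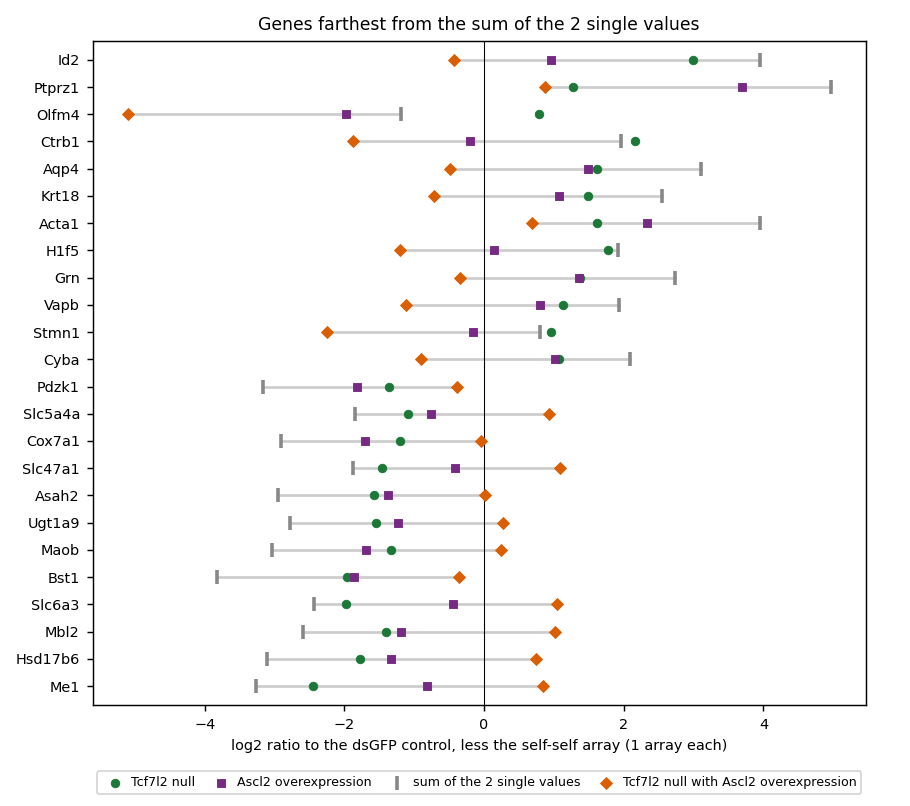
For the 12 genes farthest below the sum (top) and the 12 farthest above (bottom), the x axis gives the log2 ratio to the dsGFP control less the self-self array, 1 array per symbol; circles are Tcf7l2 null, squares Ascl2 overexpression, diamonds both, and the grey tick is the sum. Diamonds lie left of the tick by 2.98 or more at the top and right of it by 2.78 or more at the bottom.

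All 24 of these genes stayed past 2-fold in the same direction under the 12 other ways of computing the departure, although the rule that named them required it for 2 of these, the scanner's ratio and the authors' values. With the Ascl2 value taken from the 2 arrays of the series' experiment 1 instead, 7 of them moved by over 1.5 times: Olfm4 to -6.78, Ptprz1 to -2.10, Vapb to -1.88, Acta1 to -1.77, Cox7a1 to 1.90, Bst1 to 1.78 and Pdzk1 to 1.37. With the mean over a gene's probes, Id2 departed by -2.64, Asah2 by 1.88, Grn by -1.79 and Vapb by -1.28. With changes added on the linear scale, Slc6a3 (5.37), Slc5a4a (4.93), Ugt1a9 (4.59) and Acta1 (-2.14) moved by as much.

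**Figure D4:**
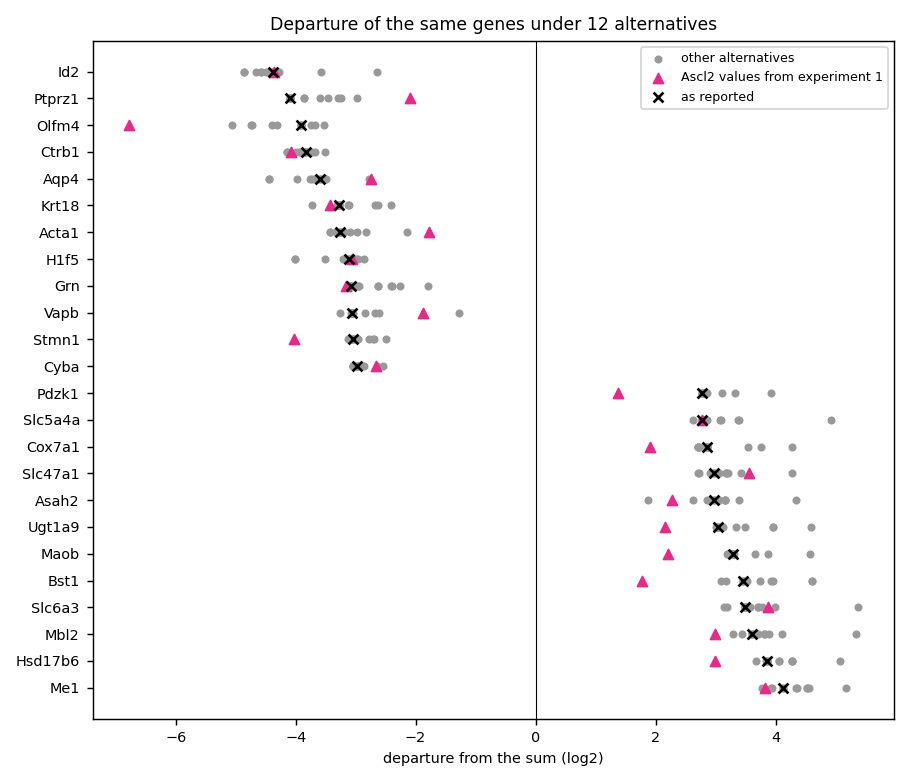
The x axis gives the departure from the sum on the log2 scale for the 24 genes farthest from it, as reported (crosses), with Ascl2 values from experiment 1 (triangles) and under the other alternatives (grey). No symbol crosses 0, and Olfm4 ranges as low as -6.78.

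Mitosis genes were the group most often below the sum. Of 37 mitosis genes with a departure, 33 (89.2%, against 6.07% of all genes) lay 2-fold or more below the sum and 0 above. The median mitosis gene read 0.58 with Tcf7l2 loss, -0.10 with Ascl2 and -1.10 with both, and departed by -1.62. All 37 were above the control with Tcf7l2 loss alone and all 37 were below it with both. In bulk RNA, fewer dividing cells and less of these transcripts per cell cannot be told apart.

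Ube2c, the ubiquitin-conjugating enzyme of the anaphase-promoting complex, read 0.90, 0.20 and -1.09 (departure -2.18), and Kif20a, a kinesin of cytokinesis, 0.71, -0.23 and -1.74 (-2.23). Cyclin B1, Ccnb1, read 0.68, 0.00 and -1.29 (-1.97). Mki67, the proliferation antigen, read 0.36, -0.45 and -1.71 (-1.62). Anln, an actin-binding protein of the cleavage furrow, was the mitosis gene nearest the sum at -0.51, or -1.58 with the scanner's ratio.

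DNA replication genes followed the same order, with 28 of 42 (66.7%) below the sum and 0 above. Their medians were 0.37, -0.23 and -1.08, and the median departure was -1.41. All 42 were below the control with both changes. Among the subunits of the replicative helicase, Mcm7 read 0.78, -0.70 and -2.25 (-2.33) and Mcm6 0.53, -0.21 and -1.90 (-2.22). Mcm6 was among the genes that passed 1.5-fold in neither single, as was the chromatin assembly subunit Chaf1b at 0.37, -0.37 and -2.15 (-2.15). Tipin, a replication fork protein, had the lowest departure of this list at -2.38. Of 23 histone genes 13 (56.5%) lay below the sum and 0 above. The histones H2ac23 (0.83, -0.02 and -2.0) and H2ac13 (0.55, -0.19, -2.04) departed by -2.82 and -2.40.

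Promoters of genes that departed together are shown for Id2, as the gene farthest below the sum, and for Mcm3 (departure -2.23) and Ube2c, as members of the replication and mitosis lists. They are RefSeq sequences of build GRCm38.p6, 250 bases before to 50 after the annotated start, read 5' to 3' on the gene's strand, at chr12:25096043-25096342 (minus), chr1:20820263-20820562 (minus) and chr2:164769679-164769978 (plus). Capitals mark, on either strand and allowing overlaps, an E-box CAGCTG of the kind bound by basic helix-loop-helix factors, a TCF site CTTTGAT, an E2F site TTCCCGC and a CCAAT box.
Id2: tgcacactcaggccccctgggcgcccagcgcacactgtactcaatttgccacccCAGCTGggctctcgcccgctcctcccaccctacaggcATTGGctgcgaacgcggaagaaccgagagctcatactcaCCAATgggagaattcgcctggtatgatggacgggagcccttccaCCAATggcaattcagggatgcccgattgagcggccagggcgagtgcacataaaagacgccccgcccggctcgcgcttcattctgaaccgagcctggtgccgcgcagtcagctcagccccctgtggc
Mcm3: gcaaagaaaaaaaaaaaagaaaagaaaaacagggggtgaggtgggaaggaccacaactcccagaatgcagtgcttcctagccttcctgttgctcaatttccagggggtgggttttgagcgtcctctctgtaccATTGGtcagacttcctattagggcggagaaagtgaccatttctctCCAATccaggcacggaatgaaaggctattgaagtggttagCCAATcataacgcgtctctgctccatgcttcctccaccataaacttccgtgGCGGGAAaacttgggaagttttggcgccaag
Ube2c: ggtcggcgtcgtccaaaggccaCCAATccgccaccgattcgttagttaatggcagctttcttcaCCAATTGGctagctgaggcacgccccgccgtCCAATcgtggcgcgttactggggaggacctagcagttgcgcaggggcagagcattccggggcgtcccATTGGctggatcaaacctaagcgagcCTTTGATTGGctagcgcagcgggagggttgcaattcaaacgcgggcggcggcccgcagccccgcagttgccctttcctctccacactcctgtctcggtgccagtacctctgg
The Id2 window held 1 E-box and 3 CCAAT boxes, the Mcm3 window 1 E2F site and 3 CCAAT boxes, and the Ube2c window 1 TCF site and 6 CCAAT boxes, some of which overlap.

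Of the 16429 genes, 10929 had a listed promoter. The CCAAT box was present in 25 of 31 mitosis promoters (80.6%) and 21 of 33 replication promoters (63.6%), against 38.9% of all. The E2F site was present in 15 of 33 replication promoters (45.5%) and 1 of 31 mitosis promoters, against 7.80% of all. Among all genes below the sum 13.02% had the E2F site, and among those above it 4.68%. The E-box was found in 14.1% of promoters below the sum, 19.1% above it and 14.9% of all. The TCF site was in 1.73%, 2.92% and 2.69%. It was in 2 of 31 mitosis promoters, Ube2c among them, and in 0 of 33 replication promoters. A match is a description of the letters only.

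The median ribosome gene was above the control in each single condition and below it in the combination. Of 40 ribosome biogenesis genes 25 (62.5%) lay below the sum and 0 above, with medians of 0.44, 0.17 and -0.53 and a median departure of -1.15. All 40 were above the control with Tcf7l2 loss, 33 with Ascl2, and 38 were below it with both. Ncl, the abundant nucleolar protein nucleolin, read 1.32, 0.20 and -0.84 (-2.37), and Gar1, of the RNA-modifying H/ACA particles, 1.17, 0.45 and -0.84 (-2.45). A second Ncl probe departed by -0.98. Of 76 ribosomal protein genes 24 (31.6%) lay below the sum and 0 above. Their medians were 0.41, 0.30 and -0.12, and 74 of 76 departed below 0, while 23 were still above the control with both. Rps7 read 1.02, 0.76 and 0.10 (-1.68), and departed by -0.84 with median centring. Many ribosomal protein genes have near-identical processed copies, so a probe's signal can be shared between them.

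Crypt base stem cell genes were lower with Ascl2 overexpression, higher with Tcf7l2 loss, and lower still with both. Of 25 such genes 12 (48.0%) lay below the sum and 1 above. Their medians were 0.47 with Tcf7l2 loss, -0.46 with Ascl2 and -1.06 with both. The median departure was -0.95. Slc12a2, an ion cotransporter, read 0.83, -0.52 and -1.91 (-2.22). Smoc2, a secreted matrix protein, read 0.72, -0.32 and -1.30 (-1.71). Lgr5, a receptor for R-spondins and the best-known marker of these cells, read 0.38, -1.92 and -2.22 and departed by -0.68. Lgr5 was thus low in both experiment 2 conditions with Ascl2. Its departure depends on the values used: it was -1.64 with the scanner's ratio and -3.15 with the Ascl2 values of experiment 1. In experiment 1 the Ascl2 value of Lgr5 was positive instead of negative. Msi1, an RNA-binding protein, was the only stem cell gene above the sum by 2-fold, at -0.73, -0.21 and 0.21 (1.15), and departed by 0.96 without the self-self subtraction.

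Among Wnt targets 8 of 19 (42.1%) lay below the sum and 1 above, with a median departure of -0.39, or -1.75 with the Ascl2 values of experiment 1. Several of these are also on the stem cell list. The transcription factor Myc read 0.78 with Tcf7l2 loss, 0.15 with Ascl2 and -1.40 with both (-2.33), and another Myc probe departed by -1.10. Sox4 read 1.39, 0.14 and -0.58 (-2.11), cyclin D1, Ccnd1, 0.46, 0.17 and -0.99 (-1.62), and Sox9 0.33, -0.75 and -1.76 (-1.34, or -0.91 over its probes' mean). The sorting receptor Ephb3 read 0.54, -1.25 and -2.47 (-1.77). Axin2, a feedback inhibitor of the pathway, read 0.42, -1.14 and -1.06 and departed by -0.34, but by -1.84 with experiment 1 and -3.02 with the scanner's ratio. The ubiquitin ligases Rnf43 (-0.19) and Znrf3 (0.11), which remove Wnt receptors, were near the sum. Sp5, a transcription factor downstream of Wnt, went the other way at -0.56, -0.84 and 0.29 (1.68). In the Notch pathway 4 of 18 genes (22.2%) lay below the sum and 0 above, with Hes1, the main Notch-responsive repressor, at 1.08, 0.35 and 0.18 (-1.25). Hes1 departed by only -0.42 without the self-self subtraction and by -0.97 with median centring.

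Of 22 genes of fetal and regenerating epithelium, 21 were above the control with Tcf7l2 loss, 18 with Ascl2 and 7 with both. Of these 22 genes 16 (72.7%) lay below the sum and 0 above, with medians of 0.56, 1.00 and -0.12 and a median departure of -1.52. Krt8, the partner keratin of Krt18, read 1.63, 1.59 and 0.32 (-2.90). Clu, the secreted chaperone clusterin, read 0.86, 1.63 and -0.22 (-2.71), and Msln, mesothelin, 0.59, 1.24 and -0.43 (-2.27). Anxa1, an annexin, read 0.37, 0.98 and -0.15 (-1.5; -0.89 with the Ascl2 values of experiment 1). Ly6a, the Sca-1 antigen, read 0.12, -1.52 and -1.27 (0.13), and departed by -1.5 with experiment 1. Only 6 of 17 fibroblast genes had a departure, and 3 were fully measured. Of the 6, Acta2 alone lay 2-fold below the sum (-1.34), with its other probe at -0.01 and -0.86 with median centring. The processing compresses changes of dim probes, so these few genes cannot show whether connective tissue genes moved along with this list.

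Lists of genes that absorptive enterocytes use, for lipid uptake, the brush border, fatty acid oxidation and drug metabolism, had the largest shares above the sum. Of 26 lipid absorption genes 15 (57.7%, against 4.76% of all genes) lay 2-fold or more above the sum and 0 below. Their medians were -0.48 with Tcf7l2 loss, -0.14 with Ascl2 and 0.41 with both, and the median departure was 1.24. Fabp1, a fatty acid carrier, read -1.42, -0.90 and 0.10 (2.42), and the fatty acid receptor Cd36 -0.99, -0.01 and 1.03 (2.03). Mogat2, which rebuilds triglyceride, read -0.93, -0.32 and 0.45 (1.70), and the chylomicron assembly protein Mttp -0.56, 0.01 and 0.71 (1.25). Each of these was lower than the control with Tcf7l2 loss alone and higher than it with both. Scarb1, the HDL receptor, differed at 0.75, 0.15 and -0.02 (-0.92).

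Brush border genes lay above the sum in 13 of 27 cases (48.1%) and below in 0, with medians of -0.50, -0.03 and 0.32. The fructose transporter Slc2a5 read -1.23, -1.46 and -0.45 (2.24), the glutathione-cleaving Ggt1 -1.02, 0.71 and 1.93 (2.24), and the peptidase Dpp4 -0.52, 0.09 and 0.94 (1.38). Among structural proteins of the microvilli Vil1 departed by 0.49, Myo1a by 0.40, Cdhr5 by -0.04 and Ush1c by -0.08. With median centring these were 1.35, 1.25, 0.62 and 0.51. Intestinal alkaline phosphatase, Alpi, read -0.13, 0.48 and 0.82 (0.47), and departed by 1.63 with experiment 1.

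Of 28 genes of fatty acid oxidation and PPAR targets, 14 (50%) lay above the sum and 0 below, with a median departure of 1.01. Of 40 drug-metabolising enzymes the count was 21 (52.5%) above and 0 below, with medians of -0.45, -0.13 and 0.50. For this list 39 of 40 genes were lower than the control with Tcf7l2 loss and 33 were higher with both. The cytochrome Cyp2d26 read -1.04, -0.48 and 0.51 (2.02), the carboxylesterase Ces1g -0.66, 1.42 and 2.59 (1.84), and the glutathione transferase Gstm1 -0.81, 0.64 and 1.5 (1.67). Cyp3a11, a xenobiotic-metabolising cytochrome, remained below the control at -1.10, -1.67 and -1.22 (1.56; 0.94 with experiment 1).

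For Paneth, enteroendocrine hormone and tuft cell genes the counts depended on the Ascl2 values used, and these were not the only such lists. With experiment 1, 48 of 76 ribosomal protein genes lay below the sum (24 as reported). So did 18 of 24 stem cell genes (12 of 25 as reported) and 8 of 18 Notch genes (4 as reported). Ribosome biogenesis stayed at 25 of 40 below, and respiratory chain genes at 0 either way. Paneth cell genes were lower in all 3 conditions, with medians of -0.37, -1.14 and -1.40, and 1 of 17 lay above and 1 below the sum (median departure -0.12). With the Ascl2 values of experiment 1, 11 of the 17 lay below and 0 above (median -1.43). The defensin Defa21 read -0.45, -2.22 and -2.29 (0.37) and the antimicrobial ribonuclease Ang4 -0.53, -2.09 and -3.17 (-0.56). Mptx1, a pentraxin, read -1.21, -3.19 and -3.07 (1.34). With experiment 1 Defa21 departed by -1.49, Ang4 by -3.21 and Mptx1 by -2.08. On the linear scale Defa21 departed by 2.03 and Ang4 by 1.15. Among 19 goblet cell genes 2 lay above and 1 below. Foxa3, a goblet cell transcription factor, read 0.69, 0.24 and -0.53 (-1.47), and the mucin Muc2 -0.60, 0.10 and 0.54 (1.04), with another probe at -0.08 and 0.48 over its probes' mean.

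Enteroendocrine hormones included the largest values close to the sum. Gcg, which encodes proglucagon and GLP-1, read 0.96 with Tcf7l2 loss, 3.88 with Ascl2 and 4.95 with both, a departure of 0.11. Gip, the glucose-dependent insulinotropic peptide, read 0.28, 3.63 and 4.30 (0.39), and Cck, cholecystokinin, 0.36, 2.95 and 3.86 (0.55). All 3 were high in both experiment 2 conditions with Ascl2, and higher with both changes than with Ascl2 alone. This nearness to the sum rests on the Ascl2 array of experiment 2. In experiment 1 the Ascl2 values of all 3 were negative instead of positive. With those values Gcg departed by 4.89, Gip by 5.02 and Cck by 4.58, and 8 of the 14 hormone genes lay above the sum. Of 14 hormone genes 3 (21.4%) lay above the sum and 0 below, led by secretin, Sct, at -0.47, -0.60 and 0.49 (1.56). The enteroendocrine transcription factors lay on both sides of the sum, with Neurog3, which starts this lineage, at 0.94, -0.12 and -0.79 (-1.61). Of 20 such factors 1 lay above and 3 below.

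Of 20 tuft cell genes 2 lay above the sum and 0 below, with medians of 0.01, 0.24 and 0.69, and with experiment 1 the number above was 8. The kinase Dclk1 read -0.65, 0.51 and 1.00 (1.15, or 0.82 without the self-self subtraction), and Alox5, the leukotriene-forming lipoxygenase, -0.26, 1.19 and 1.44 (0.51, or 2.08 with experiment 1). Among the 7 lectins of the Reg family 3 lay above the sum. Reg3a read -0.96, -1.80 and -1.05 (1.70, or 0.35 with experiment 1), whereas Reg3g was near the sum at 0.29, 1.55 and 1.76 (-0.09). Secretory granule genes had 2 of 21 above and 0 below.

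Other lists had fewer genes past 2-fold. None of 56 respiratory chain genes passed 2-fold either way, with departures from -0.71 to 0.86. Interferon-stimulated genes had 2 of 32 above and 2 below, and glycolysis and hypoxia genes 1 of 29 each way. With the Ascl2 values of experiment 1 the former had 5 above and 2 below, and the latter 2 above and 8 below. The median departure of the glycolysis and hypoxia genes was 0.21 as reported and -0.72 with experiment 1. Among 34 cholesterol and fatty acid synthesis genes 3 lay above and 2 below, the former including Me1 and the desaturase Scd1 (1.84) and the latter the desaturase Fads1 (-2.33). Stress response genes had 1 of 33 above and 5 (15.2%) below, with Phgdh, which starts serine synthesis, at 0.47, -0.23 and -1.41 (-1.64). Targets of p53 had 1 of 23 above and 3 (13.04%) below, with Ddit4 at -2.08. Of 24 keratins, claudins and junction proteins 5 (20.8%) lay below and 0 above. Of the 8 exocrine pancreas genes measured, Ctrb1 alone passed 2-fold, and the other 7 departed by no more than 0.49. None of 9 blood and immune genes and 2 endothelial genes passed it.

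**Figure D5:**
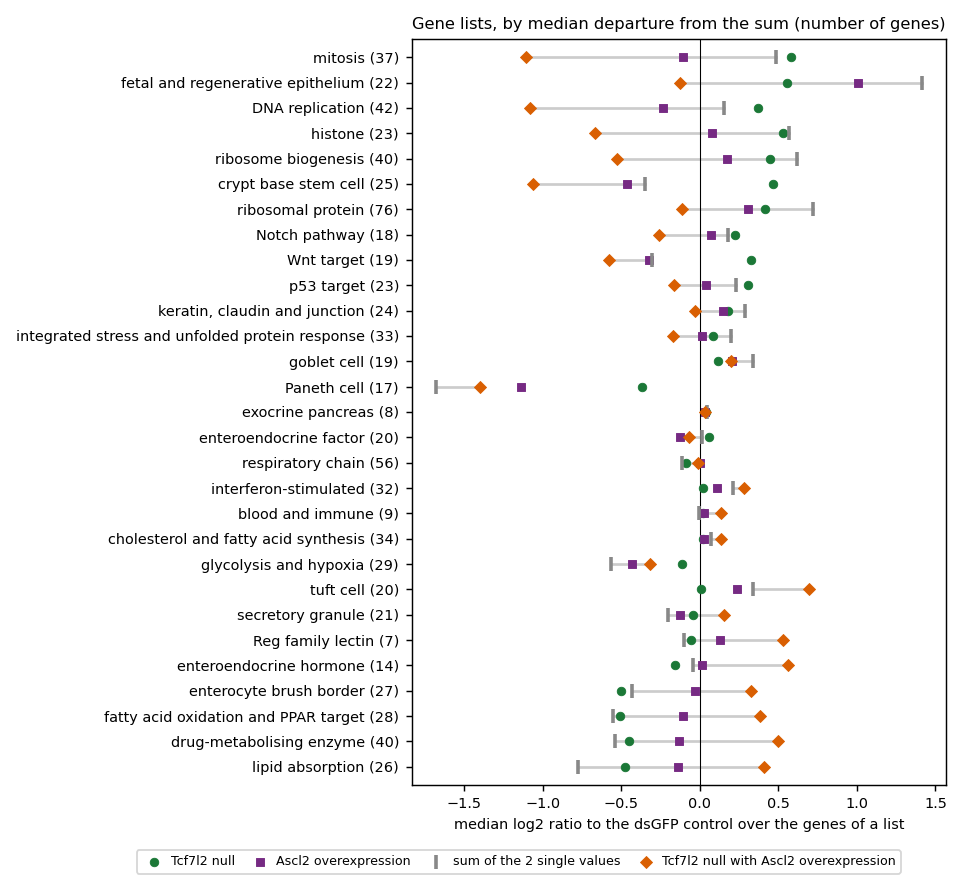
The x axis gives the median log2 ratio to the dsGFP control over the genes of each list with 7 or more measured genes (number in brackets), less the self-self array; circles are Tcf7l2 null, squares Ascl2 overexpression, diamonds both, and the grey tick is the median of the sums. Cell cycle, ribosome, stem cell and regenerating epithelium lists have the diamond left of the tick, and enterocyte lists have it right of the tick.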

How the data were processed

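Agilent 4x44K mouse arrays were read with Feature Extraction 10.5.1.1, per the file headers. The deposited scanner files give median spot and local background intensity per channel, which were used. They also hold a log10 ratio of Cy5 over Cy3 that, per the file headers, already includes background subtraction and dye normalization. The authors' deposited table holds log2 ratios, which differed from that scanner ratio by at most 0.005 on these 4 arrays, with fewer spots. Each array had 43379 spots besides 1639 control spots. RNA input was 500 ng, per the labels.

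Intensities were background-corrected (limma 3.58.1 in R 4.3.3, normexp, offset 50) and loess-normalized within each array. Loess assumes that most genes at a given brightness do not change. Spots called outliers were dropped, spots of a probe averaged, and probes kept if at least 2 of the 4 arrays had a channel well above background. Outlier spots left 135 genes without a departure. The offset compresses the changes of dim probes. The scanner's gene names were updated through RefSeq, by the probe's own accession for 26918 probes and another accession for 97, and 14159 kept the array's name. Named genes are the 12 highest and 12 lowest departures that also pass 2-fold with the scanner's ratio and the authors' values, 8 large values near the sum (within 0.5), 3 per class and 2 each way per list. Other list members named were chosen after their values were seen. The members and gene lists were chosen with earlier results of these data known. No test was run with 1 array a condition. The departure was recomputed in 12 other ways, 1 of them chosen after seeing the data.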

Additional observations from a re-analysis of the deposited data

Results flagged for a closer look

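For 22 of the 24 genes farthest from the sum, the effect of Tcf7l2 loss was past 2-fold in opposite directions without and with Ascl2 overexpression. A departure is the second of these effects minus the first, so choosing the largest departures favours opposite signs, and the count is a description. Each direction rests on 1 array or a difference of 2, and the difference was not tested. Of the 12 genes farthest above the sum, all were lower with Tcf7l2 loss alone and higher with it in the Ascl2-overexpressing organoids, where the effect was 1.67 for Me1, 2.09 for Hsd17b6, 2.21 for Mbl2, 1.5 for Slc6a3, 1.5 for Bst1, 1.94 for Maob, 1.5 for Ugt1a9, 1.39 for Asah2, 1.5 for Slc47a1, 1.65 for Cox7a1, 1.69 for Slc5a4a and 1.42 for Pdzk1 on the log2 scale. Of those farthest below, 10 were higher with Tcf7l2 loss alone and lower with it in the Ascl2-overexpressing organoids, at -1.39 for Id2, -2.82 for Ptprz1, -1.68 for Ctrb1, -1.97 for Aqp4, -1.79 for Krt18, -1.64 for Acta1, -1.33 for H1f5, -1.71 for Grn, -1.93 for Vapb and -1.92 for Cyba. Olfm4 and Stmn1 did not meet this because their value with Tcf7l2 loss alone was under 2-fold.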

How the results depend on the processing

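No paired analysis was possible because each condition had 1 array, and for the same reason no replicate could be left out. Over the alternatives, 279 of 372 list medians moved by no more than 0.19, the median SD between probes of a gene, and 93 moved more. Of 1740 departures of named genes 1121 stayed within that spread. Among those past 2-fold as reported 1 changed sign, Mptx1 to -2.08 with the Ascl2 arrays of experiment 1, and no list median past 2-fold did. The number of genes past 2-fold changed with several settings. With the scanner's log ratio 1932 lay above and 1774 below (52.1% of calls above, against 43.9% as reported), 159 were higher in both singles and below the sum, 300 lower in both and above it, and 292 lower in the combination only. With the authors' values these numbers were 1601, 1504, 159, 301 and 291. Median centring in place of loess left the median of all genes at 0.22, with 1958 above and 577 below (77.2% above) and 31, 641 and 69 in the 3 classes. With that median removed, an alternative chosen after seeing the data, 1222 lay above and 902 below (57.5% above), with 34, 587 and 69. Additivity on the linear scale gave 1131 above and 922 below (55.1% above), with 140 predictions at its floor. Ascl2 values from experiment 1 gave 1016 above and 1316 below, kept 578 and 844 of the reported genes, turned 5, and put 280 in the combination-only class. A low normexp offset of 10 gave 1059 and 1224.

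List medians moved as follows. Stem cell genes stood at -1.56 with the scanner's ratio, -1.56 with the authors' values, -0.54 with median centring, -0.76 with its median removed, -1.21 with the low offset, -1.35 on the linear scale and -1.89 with experiment 1. DNA replication stood at -1.62, -1.62 and -1.08 in the first 3 of these and -1.78 with experiment 1, and mitosis at -1.92, -1.92, -1.25 and -1.87. Regenerating epithelium stood at -1.79, -1.79, -1.26 and -1.24. Histones stood at -1.57, -1.60 and -1.02, and -1.51 with the low offset, and ribosome biogenesis at -0.90 with median centring. Brush border stood at 1.16, 1.16, 1.5, 1.28 with the median removed and 1.34 with experiment 1, and hormones at 0.72, 0.72, 0.80 and, with experiment 1, 1.45. Under median centring, the same with the median removed, and experiment 1, lipid absorption stood at 1.83, 1.61 and 1.45 and drug-metabolising enzymes at 1.71, 1.49 and 1.25. Fatty acid oxidation stood at 1.57 and 1.35 under the first 2, and lipid absorption at 1.48 with the mean of both self-self arrays. The cause of these shifts was not tested.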
